A study of Mus musculus with 2 samples.

Results

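The genes described here are 10 genes of Wnt signalling in the adult mouse mammary epithelium. They are the ligands Wnt5a, Wnt5b, Wnt6, Wnt7b, Wnt10a and Wnt11, the co-receptor Lrp6, the R-spondin receptors Lgr4 and Lgr6, and the secreted antagonist Sfrp1. They were chosen by name from the 27998 genes of the count tables, in which each symbol marked 1 gene. The study asked how varied the cells of the mammary lineages are, and the data used here were 2 single-cell libraries made on the 10X Chromium platform, which captures cells in droplets and counts the 3′ ends of their transcripts with molecular identifiers. The first held 3302 total epithelial cells (Lin-CD24+, that is, free of blood and endothelial surface markers and positive for CD24), and the second held 4771 sorted basal cells (Lin-CD29hiCD24+). Each was 1 library from the pooled glands of 4 female FVB/NJ mice at 10 weeks of age, untreated, so there is no replicate of either sort and no value per animal.

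Cells of the total library were split by counts of lineage genes that are not among the 10. Basal cells held 10 or more counts of Krt5, Krt14 and Acta2 together, mature luminal (ML) cells 10 or more of Prlr, Stc2 and Gpx3, and luminal progenitor (LP) cells were the other cells with 3 or more counts of Krt8, Krt18 and Krt19. This gave 1306 basal cells (39.6%), 766 LP cells (23.2%), 1133 ML cells (34.3%) and 97 cells (2.94%) that met no rule. The LP class was set by exclusion, and its name was checked on 8 progenitor markers such as Trf, Csn3 and Elf5. Their summed level was 54473 CPM in LP cells, 5027 CPM in ML cells and 2662 CPM in basal cells (CPM, counts scaled to a common total per class). Trf made up most of that sum, at 43966 CPM in LP cells. Csn3 stood at 6649, 619 and 250 CPM and Elf5 at 374, 42.1 and 19.5 CPM in LP, ML and basal cells. The 10 basal markers summed to 46285, 229 and 143 CPM in basal, LP and ML cells. Krt5, Krt14 and Acta2 are among them, so this sum was in part fixed by the basal rule. The 7 markers outside the rule stood in LP cells at 0.268% to 8.88% of their basal level, and in ML cells at 0.204% to 1.24%. Depth differed between the groups: the median cell held 1838.5 counts in basal cells, 2483.5 in LP cells, 3403 in ML cells and 487 in the sorted basal library. All levels below are CPM of the counts summed over the cells of a class, with exact Poisson 95% intervals. With 1 library per sort no test was possible, and all intervals cover counting error only.

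Wnt proteins are secreted lipid-modified ligands that bind Frizzled receptors. With the co-receptors Lrp5 or Lrp6 they stabilise β-catenin, and other ligands such as Wnt5a act mostly through routes that do not need β-catenin. R-spondins, bound by the Lgr receptors, raise the number of Frizzled receptors at the cell surface, while secreted frizzled-related proteins bind Wnt ligands outside the cell. In the mammary gland the pathway is known for its part in the maintenance of basal stem cells and in the branching that follows progesterone.

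Wnt6 and Wnt10a lay next to each other on chromosome 1 (GRCm38, GENCODE annotation). Wnt6 spanned 74771892 to 74785322 and Wnt10a 74791516 to 74804179, both on the plus strand and 6193 bases apart. The other genes were spread over the genome: Lgr6 on chromosome 1 (134983301 to 135105276, minus strand), Lgr4 on chromosome 2 (109917647 to 110014257, plus), Wnt5b and Lrp6 on chromosome 6 (119432531 to 119544347 and 134446476 to 134566965, both minus), Wnt11 on chromosome 7 (98835112 to 98855195, plus), Sfrp1 on chromosome 8 (23411502 to 23449632, plus), Wnt5a on chromosome 14 (28504750 to 28527448, plus) and Wnt7b on chromosome 15 (85535437 to 85582473, minus).

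The 250 bases upstream of a RefSeq transcription start (GRCm38.p6) were found for 5 of the 10 genes, namely Wnt5b, Wnt6, Wnt11, Lgr4 and Lgr6, and not for Wnt5a, Wnt7b, Wnt10a, Sfrp1 and Lrp6. Those of Wnt6 and Wnt11, which were highest in basal cells, and of Wnt5b, which was highest in LP cells, are shown 5′ to 3′ on the strand of the gene so that ligands of the 2 lineages can be read side by side. Capitals mark the TATA box TATAAA, the CCAAT box CCAAT, the TCF/LEF core CTTTGA and the GC box GGGCGG, each searched on both strands and with overlapping matches kept.
Wnt6, chr1:74771642-74771891, plus strand: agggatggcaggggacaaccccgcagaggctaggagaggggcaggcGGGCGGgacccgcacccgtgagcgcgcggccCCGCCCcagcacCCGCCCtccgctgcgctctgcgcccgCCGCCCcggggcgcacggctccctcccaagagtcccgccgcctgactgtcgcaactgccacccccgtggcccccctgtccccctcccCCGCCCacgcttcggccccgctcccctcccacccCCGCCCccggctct
Wnt11, chr7:98834862-98835111, plus strand: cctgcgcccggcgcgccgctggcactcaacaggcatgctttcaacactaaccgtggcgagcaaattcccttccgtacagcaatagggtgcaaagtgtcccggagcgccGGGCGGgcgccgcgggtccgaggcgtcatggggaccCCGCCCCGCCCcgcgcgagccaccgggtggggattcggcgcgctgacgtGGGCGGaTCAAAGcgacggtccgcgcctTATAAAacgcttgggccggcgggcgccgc
Wnt5b, chr6:119544348-119544597, minus strand: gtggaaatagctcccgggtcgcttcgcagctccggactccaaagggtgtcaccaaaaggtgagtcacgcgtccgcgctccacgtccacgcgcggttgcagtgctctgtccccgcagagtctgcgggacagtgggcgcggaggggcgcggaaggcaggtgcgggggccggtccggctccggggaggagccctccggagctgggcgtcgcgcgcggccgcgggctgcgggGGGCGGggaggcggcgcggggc
All were rich in G and C (79.6% for Wnt6, 70.8% for Wnt11 and 75.2% for Wnt5b, against a median of 52.4% over 32851 promoters of the table). The Wnt6 stretch held 6 GC boxes and none of the other motifs. The Wnt11 stretch held 4 GC boxes, a TATA box that began 29 bases before the start, and a TCF/LEF core, read as TCAAAG on the strand shown, that began 50 bases before it. The Wnt5b stretch held 1 GC box. Of all promoters in the table, 32.7% held a GC box, 12.4% a TATA box, 13.8% the TCF/LEF core and 33.8% a CCAAT box. Wnt5b and Wnt11 also had other annotated starts, and 1 of the other Wnt5b starts held the core 71 bases upstream. Counts from 3′ ends do not tell which start was used.

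The ligands differed in level between the lineages. Wnt6, Wnt10a and Wnt11 were found almost only in basal cells, Wnt5b was highest in LP cells, and Wnt5a and Wnt7b were highest in ML cells. Counting receptors and Sfrp1 as well, 7 of the 10 genes were highest in basal cells, 1 in LP cells and 2 in ML cells. Among 10846 genes with 20 or more counts in the 3 classes, the class with the highest level was basal for 40.9%, LP for 17.8% and ML for 41.2%. Of the 9 genes with 20 or more counts (all but Lgr4), 6 were 2-fold or more above the next class, against 26.8% of the 10846. These were 4 in basal cells (13.6% of all genes), 1 in LP cells (4.47%) and 1 in ML cells (8.73%).

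**Figure D1:**
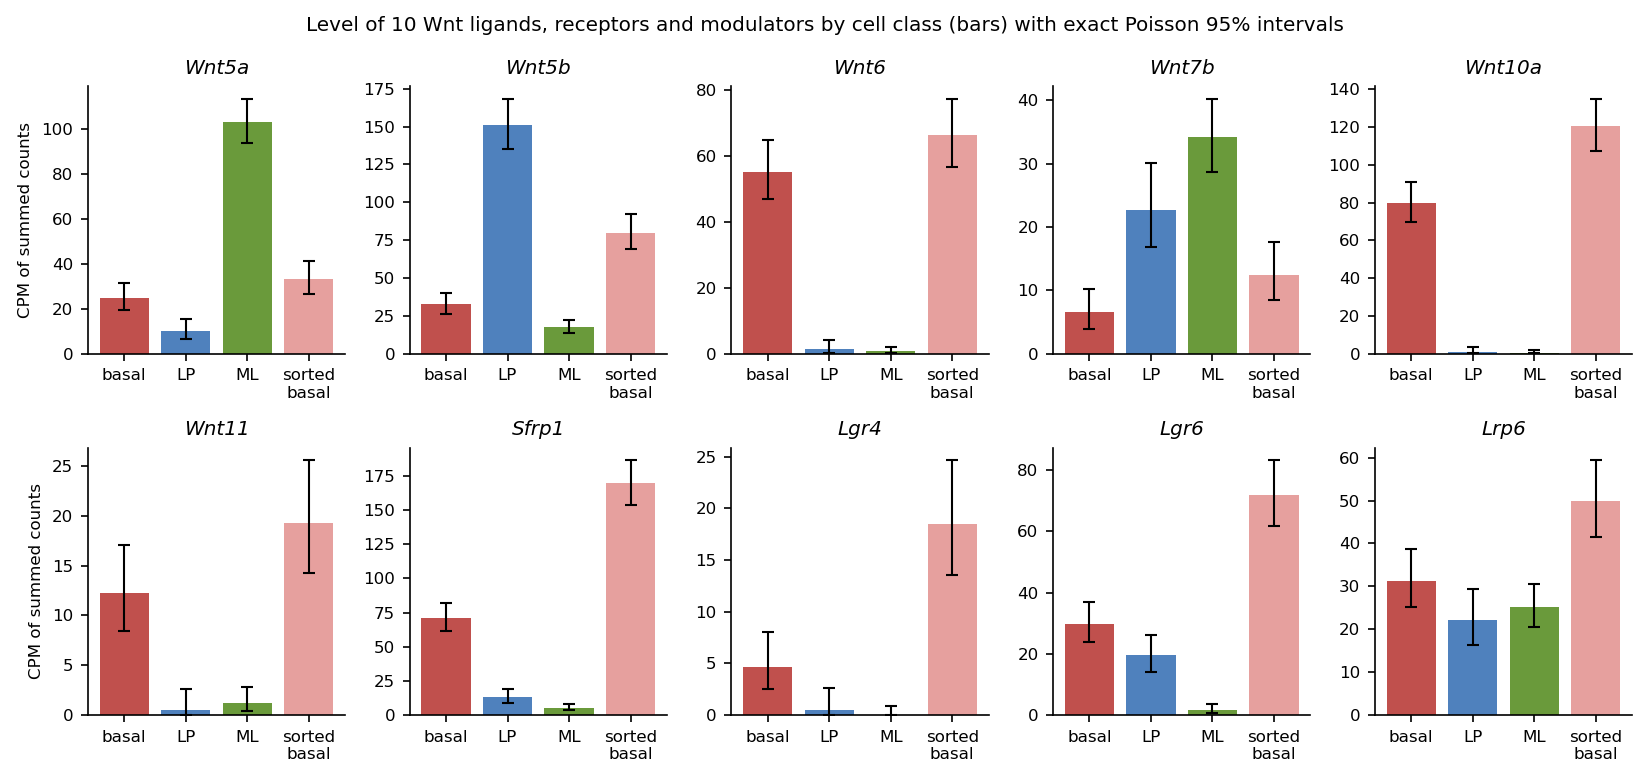
Bars show the level of each of the 10 genes as CPM of summed counts in basal, LP and ML cells of the total library and in the sorted basal library, with exact Poisson 95% intervals and a separate axis for each gene. Wnt6, Wnt10a and Wnt11 stand near 0 in both luminal classes, Wnt5b peaks in LP cells at 151 CPM, Wnt5a peaks in ML cells at 103 CPM, and the intervals of Lrp6 overlap in the 3 classes.

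Wnt10a, a ligand of β-catenin signalling known from skin appendages and teeth, had 221 counts in basal cells, 2 in LP cells and 2 in ML cells. These were levels of 79.6 CPM (69.5 to 90.8), 0.927 CPM (0.112 to 3.35) and 0.484 CPM (0.0586 to 1.75), and the sorted basal library stood at 121 CPM (107 to 135). The 2 LP counts were in 1 cell. The level in basal cells was 85.9 times that in LP cells (95% interval of the ratio 23.5 to 714) and far above both luminal classes, whose intervals overlapped. Wnt10a was detected in 12.9% of basal cells (11.1 to 14.8) and in 0.177% of ML cells, although the median ML cell was deeper (3403 against 1838.5 counts). With every cell thinned to 800 counts the shares were 5.36% and 0.0883%.

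Its neighbour Wnt6, also a ligand, had 153 counts in basal cells against 3 in LP and 3 in ML cells. The levels were 55.1 CPM (46.7 to 64.6) in basal cells, 1.39 CPM (0.287 to 4.06) in LP cells and 0.726 CPM (0.15 to 2.12) in ML cells, with 66.3 CPM (56.6 to 77.2) in the sorted basal library. Basal cells thus lay 39.7-fold over LP cells (13.3 to 194). Wnt6 was seen in 8.19% of basal cells (3.68% thinned to 800 counts) and in 0.265% of ML cells, where no cell held a count after thinning. That basal-to-luminal pattern was shared by the adjacent genes, but within single cells they were found together rarely. Of 48 basal cells with Wnt6 at 800 counts, 5 (10.4%, 3.47 to 22.7) also held Wnt10a, against 5.17% of the other basal cells, a value inside that interval.

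Wnt11, a ligand linked mainly to β-catenin-independent signalling and to cell movement, was the least counted of the basal ligands. It had 34 counts in basal cells, 1 in LP cells and 5 in ML cells, or 12.2 CPM (8.48 to 17.1), 0.463 CPM (0.0117 to 2.58) and 1.21 CPM (0.393 to 2.82), and 19.3 CPM (14.2 to 25.6) in the sorted basal library. The basal level was 10.1 times the ML level (3.94 to 33.2). Its share of basal cells was 2.45%, or 0.536% at 800 counts, against 0.131% of LP cells unthinned and none at 800 counts.

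The luminal counts of these ligands were low, as were those of other basal genes. In droplet libraries RNA freed from broken cells enters every droplet, and 7 basal markers stood in LP cells at 0.268% to 8.88% of their basal level (median 0.603%) and in ML cells at 0.204% to 1.24% (median 0.373%). Wnt6 stood at 2.52% and 1.32% of its basal level, and Wnt10a at 1.16% and 0.608%. Wnt11 stood at 3.78% and 9.88%, the latter on 5 counts. These values rest on 1 to 5 counts and lay above most of the 7 markers, so whether they are carried-over RNA or expression cannot be told apart.

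Wnt5b, a close relative of Wnt5a, was the only ligand of the 6 that was highest in LP cells. It had 326 counts in LP cells, 91 in basal cells and 72 in ML cells, which gave 151 CPM (135 to 168), 32.8 CPM (26.4 to 40.2) and 17.4 CPM (13.6 to 21.9). No 2 of these intervals overlapped, and the LP level was 4.61 times the basal level (3.64 to 5.88) and 8.67 times the ML level (6.70 to 11.4). Wnt5b was detected in 27.5% of LP cells (24.4 to 30.9) and 4.15% of ML cells, or 10.1% and 0.971% at 800 counts. The basal level was 21.7% of the LP level, whereas 5 LP markers stood in basal cells at 2.55% to 5.2% of theirs. Within LP cells the level at 800 counts was 124 CPM (56.5 to 235) in the 91 cells with Kit, a receptor that marks progenitors, and 144 CPM (114 to 180) in the 675 cells without it, and these intervals overlapped.

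Wnt5a, the best known β-catenin-independent ligand and one that restrains branching when supplied to the gland, was highest in ML cells, which hold the hormone receptors. Its counts were 427 in ML cells, 69 in basal cells and 22 in LP cells, or 103 CPM (93.7 to 114), 24.9 CPM (19.3 to 31.5) and 10.2 CPM (6.39 to 15.4). All 3 intervals lay apart. The ML level was 4.16 times the basal level (3.22 to 5.44) and 10.1 times the LP level (6.61 to 16.3). The log2 ratio of ML over the higher of the other classes was 2.06, and 3.02 when cells were thinned to 800 counts. It was 1.42 when class rules asked for 20 marker counts, where the higher of the other classes need not be basal. Wnt5a was found in 24.0% of ML cells (21.5 to 26.6) and in 2.61% of LP cells, or 8.38% and 0.914% when thinned. The LP level was 9.86% of the ML level, inside the 5.51% to 14.6% at which 5 ML markers stood in LP cells, while the basal level was 24.1%, above the 3.17% to 6.47% of those markers in basal cells.

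Counts of Wnt5a were uneven among ML cells. At 800 counts per cell its variance was 1.495 times its mean, where random sampling of 1 common level would give about 1, and a single ML cell held 12 counts before thinning. The intervals of Wnt5a overlapped between ML cells with and without a count of the progesterone receptor gene Pgr. They also overlapped between cells with and without Ly6a, a surface antigen that divides ML cells. Pgr was counted in 16.5% of ML cells, so a cell without a count may still hold its transcript. The Pgr split thus cannot tell whether the spread follows that gene. Cells with a Pgr count stood at 147 CPM (92.2 to 223) and those without at 130 CPM (105 to 158), and cells with and without Ly6a stood at 131 CPM (99.9 to 168) and 134 CPM (102 to 172), at 800 counts.

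Wnt7b, a ligand of β-catenin signalling, was found in both luminal classes. It had 141 counts in ML cells, 49 in LP cells and 18 in basal cells, or 34.1 CPM (28.7 to 40.2), 22.7 CPM (16.8 to 30.01) and 6.48 CPM (3.84 to 10.2). The ML and LP intervals overlapped, although the interval of their ratio, 1.503 (1.08 to 2.13), lay just above 1, and the ML level was 5.26 times the basal level (3.21 to 9.14). It was detected in 11.3% of ML cells and 1.30% of basal cells, or 2.74% and 0.383% at 800 counts. In ML cells without Ly6a it stood at 49.1 CPM (30.8 to 74.3) and in those with Ly6a at 24.0 CPM (12.0 to 42.9), at 800 counts, and these intervals overlapped.

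At 800 counts per cell, any of the 6 ligands was counted in 13.9% of basal cells, in 12.9% of LP cells and in 12.0% of ML cells, so these shares lay close together. Cells with counts of 2 or more of the ligands were few at that depth, 8 basal, 2 LP and 3 ML cells. Unthinned, the shares were 29.4%, 34.5% and 35.0%, in the order of the depths of the classes.

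Lrp6, the co-receptor that with Frizzled binds the β-catenin ligands, was the most even of the 10 genes. It had 87 counts in basal cells, 48 in LP cells and 104 in ML cells, or 31.3 CPM (25.1 to 38.7), 22.2 CPM (16.4 to 29.5) and 25.2 CPM (20.6 to 30.5). All 3 intervals overlapped, and the ratio of basal over ML was 1.25 (0.926 to 1.67). With cells thinned to 800 counts LP cells were highest, with a log2 ratio of basal over LP of -0.11. The shares of cells with Lrp6 at that depth were 2.07%, 2.48% and 2.03% in basal, LP and ML cells, against 5.28%, 5.61% and 8.38% unthinned.

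Lgr6, a receptor for R-spondins that marks stem cells in skin, was present in basal and LP cells and low in ML cells. It had 83 counts in basal cells, 42 in LP cells and 7 in ML cells, which were 29.9 CPM (23.8 to 37.1), 19.5 CPM (14.02 to 26.3) and 1.69 CPM (0.681 to 3.49). The basal and LP intervals overlapped and their ratio was 1.54 (1.05 to 2.28), a log2 ratio of 0.62 that was 0.01 at 800 counts, whereas basal cells were 17.7-fold over ML cells (8.20 to 45.3). At 800 counts the basal and LP classes held almost the same share of Lgr6 cells, 1.76% and 1.83%, against 0 of 1133 ML cells (5.05%, 4.96% and 0.530% unthinned). A count of 0 in 1133 cells allows a share of up to 0.265% of cells with a count at that depth. The LP level was 65.1% of the basal level, far above the 8.88% of the highest of the 7 basal markers in LP cells.

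Lgr4, the R-spondin receptor most widely found in other tissues, was hardly counted. It had 13 counts in 10 basal cells, 1 count in LP cells and none in ML cells, or 4.68 CPM (2.49 to 8.01), 0.463 CPM (0.0117 to 2.58) and 0 CPM. The ratio of basal over LP was 10.1 (1.52 to 430). With ML cells set at 3 counts over the class, the basal level was 6.45 times the ML level, which leaves out the counting error of the basal counts. For Lgr4 the lower limit of the exact interval of basal over ML was 4.54. In the sorted basal library it had 46 counts, or 18.5 CPM (13.5 to 24.7). Its share was 0.766% of basal cells (0.306% at 800 counts) and 0 of ML cells at either depth. At these counts the order of the luminal classes was not detectable.

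Sfrp1, which binds Wnt proteins and is known to limit growth of the gland, was highest in basal cells. It had 198 counts in basal cells, 28 in LP cells and 22 in ML cells, or 71.3 CPM (61.7 to 82.0), 13.0 CPM (8.62 to 18.7) and 5.32 CPM (3.34 to 8.06). The 3 intervals lay apart, and the basal level was 5.50 times the LP level (3.69 to 8.49). On the log2 scale this ratio was 2.46, and 1.51 with cells thinned to 800 counts. Of the 22 ML counts 12 were in 1 cell. Sfrp1 was found in 11.8% of basal cells and 0.883% of ML cells, or 5.21% and 0.353% at 800 counts. The 97 cells that met no rule stood higher still, at 181 CPM (121 to 260), and 7 fibroblast markers summed to 8583 CPM in them against 412 CPM in basal cells. Only 1 basal and 1 LP cell held 3 or more counts of the collagens Col1a1, Col1a2 and Col3a1. Leaving such cells out could thus hardly change the log2 ratio of basal over LP, 2.46 with and without them. The part of other stromal cells in the basal level was not tested.

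For 9 of the 10 genes the ratio of the highest class over the next had an interval above 1, by little for Wnt7b and Lgr6, and for Lrp6 it did not.

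To look within the lineages, cells were clustered without any gene of the Wnt pathway, which gave 22 clusters, 17 of them with 50 or more cells, and 94.5% of cells fell in a cluster in which their own class was the most common. The genes below were not used to make the clusters. Clusters are named by number.

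The basal ligands were not spread alike over the 5 large basal clusters. Wnt10a was highest in cluster 1, led by the keratins Krt17, Krt42 and Krt15, at 163 CPM (133 to 198), and lowest in cluster 7, led by Emid1 and Sostdc1, at 34.5 CPM (20.4 to 54.5). Wnt6 ran the other way, with 111 CPM (84.4 to 144) in cluster 7 and 47.0 CPM (31.7 to 67.1) in cluster 1, and it was lowest in cluster 5 at 25.0 CPM (10.8 to 49.2). For each ligand the intervals of clusters 1 and 7 did not overlap. The median cell held 1875 counts in cluster 1 and 2340.5 in cluster 7.

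Other genes of the set also differed between these clusters. Wnt5a stood at 40.2 CPM (24.9 to 61.5) in cluster 7 and 7.84 CPM (2.54 to 18.3) in cluster 1, and Lgr6 at 57.5 CPM (38.8 to 82.1) and 20.4 CPM (10.8 to 34.8), so both were higher beside Wnt6. Wnt5b, by contrast, stood at 9.58 CPM (3.11 to 22.4) in cluster 7 and 42.3 CPM (27.9 to 61.6) in cluster 1. Sfrp1 ranged from 44.1 CPM (27.9 to 66.1) in cluster 7 to 134 CPM (97.1 to 181) in cluster 5, led by Pgf and Foxj1. Lrp6 was again even, from 25.0 to 34.5 CPM over the 5 clusters.

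**Figure D2:**
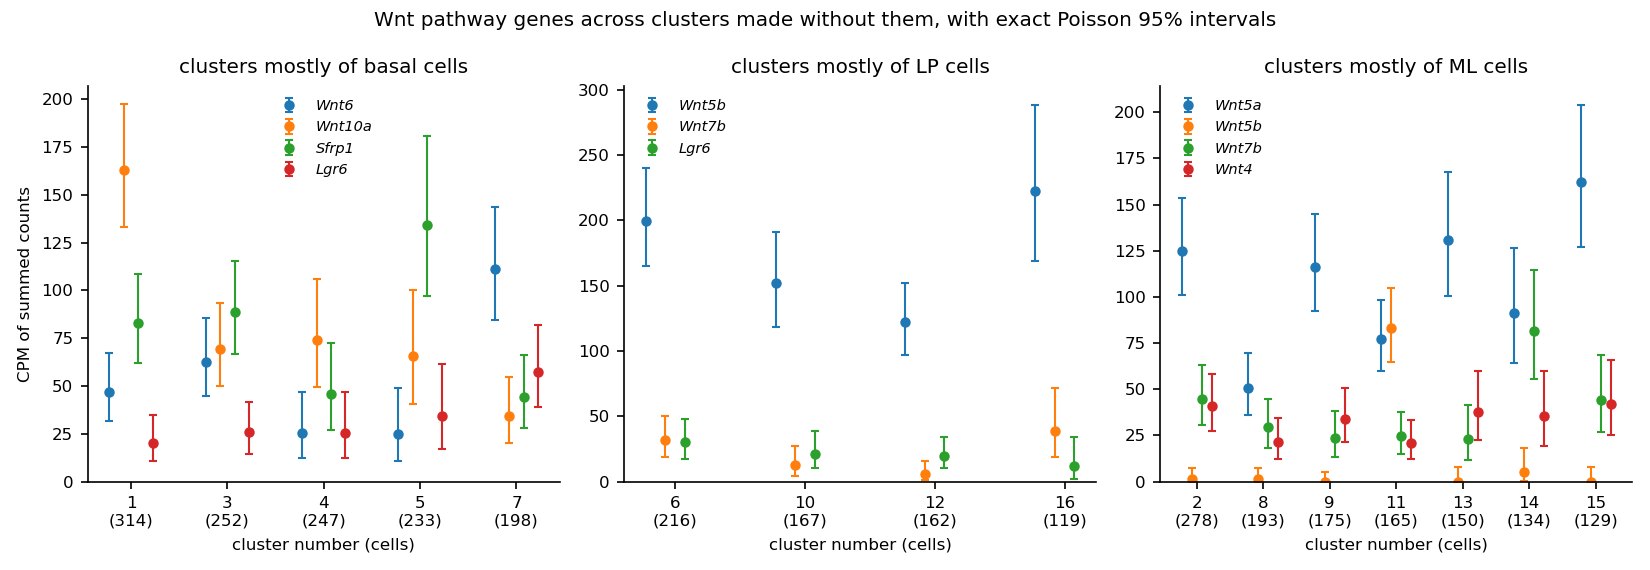
Points show CPM of summed counts in each cluster of 50 or more cells, with exact Poisson 95% intervals, for clusters mostly of basal, LP and ML cells, and the number of cells is given under each cluster number. Wnt10a peaks in cluster 1 and Wnt6 in cluster 7, Wnt5b is high in every LP cluster, and among clusters mostly of cells that met the ML rule Wnt5b is high in cluster 11 alone, whose leading genes include some of LP clusters.

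The same contrast was looked for in the sorted basal library, which took no part in the clustering. For each of clusters 1 and 7, 10 ranking genes (Wnt pathway genes left out) were chosen after the clusters were seen. For cluster 1 they were Plaur, Efhd2, Krt42, Rcan1, Krt17, Clic4, Mmp17, Krt15, Plcd1 and Gcnt2. For cluster 7 they were Col9a1, Serpinb11, Dcn, Serpinf1, Spock3, Fbln2, Egr4, St3gal4, Cd34 and Igfbp4. These lists only in part match the genes that led the clusters, and Emid1 is not among them. The cells of each library were ranked by the summed level of each set of genes. Cells above the 75th percentile are called top-ranked. By the genes of cluster 1, Wnt10a stood at 206 CPM (172 to 244) in top-ranked sorted cells and 90.9 CPM (77.7 to 106) in the rest, and in basal cells of the total library at 158 CPM (129 to 191) and 55.3 CPM (45.7 to 66.2). The intervals did not overlap in either library, but the genes came from the cluster of the total library with the highest Wnt10a, so only the sorted library adds to it. By the genes of cluster 7, Wnt6 stood at 104 CPM (82.3 to 130) in top-ranked cells and 37.0 CPM (29.1 to 46.4) in the rest of the total library, but at 73.9 CPM (54.1 to 98.6) and 63.8 CPM (52.8 to 76.3) in the sorted library, where the intervals overlapped. The value of Wnt6 in the total library is likewise a description, since it chose the cluster. In the sorted cells the intervals of Wnt5a and Wnt5b overlapped as well. By the genes of cluster 7, Wnt5a stood at 35.4 CPM (22.2 to 53.5) in top-ranked sorted cells and 32.7 CPM (25.0 to 42.0) in the rest, and Wnt5b at 64.3 CPM (45.9 to 87.6) and 85.2 CPM (72.5 to 99.5). By the genes of cluster 1, Wnt6 stood at 74.9 CPM (55.2 to 99.3) and 63.3 CPM (52.4 to 75.9).

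By the genes of cluster 7, Lgr6 stood in the sorted library at 109 CPM (84.9 to 139) in top-ranked cells and 59.5 CPM (48.9 to 71.6) in the rest, while in the total library its intervals overlapped, at 41.4 CPM (28.1 to 58.7) and 25.7 CPM (19.2 to 33.6). In sorted cells Wnt10a was lower where those genes were high, at 65.9 CPM (47.3 to 89.4) in top-ranked cells and 139 CPM (122 to 157) in the rest. Sfrp1 was lower there too, at 121 CPM (94.8 to 151) and 186 CPM (167 to 206). Top-ranked cells were deeper, with a median of 592 counts against 461 in the rest.

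**Figure D3:**
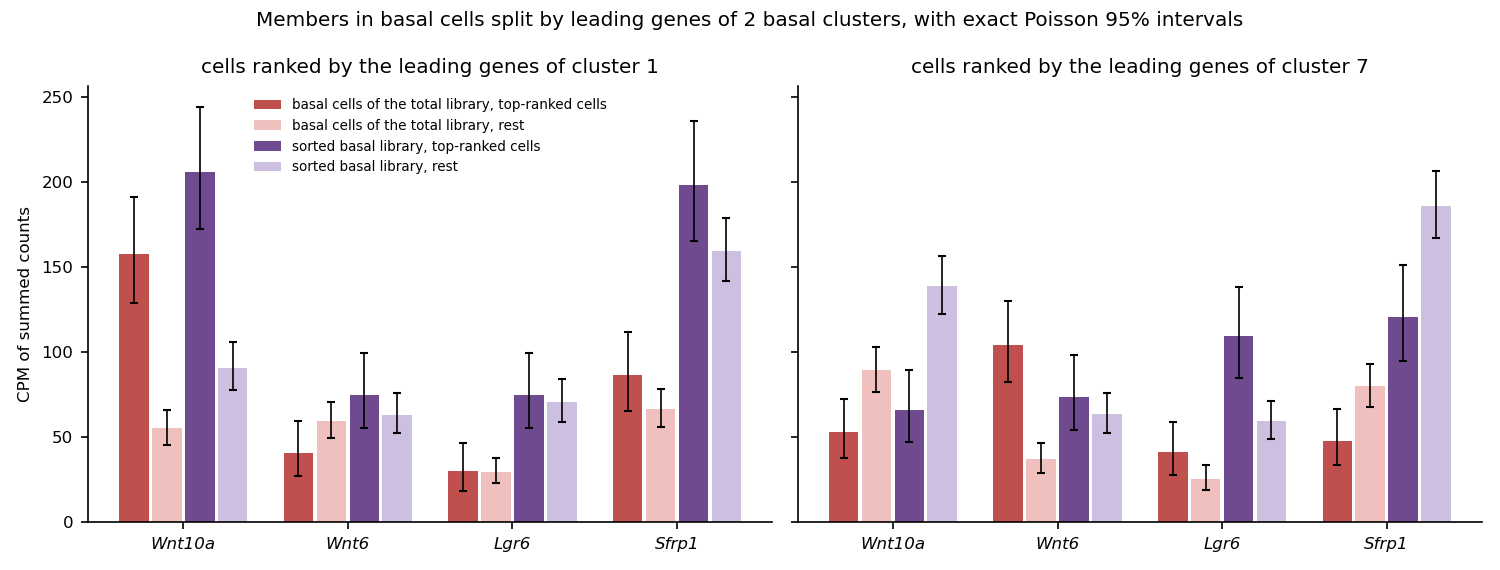
Bars show CPM of Wnt10a, Wnt6, Lgr6 and Sfrp1 with exact Poisson 95% intervals, in top-ranked basal cells and the rest, for both libraries. Cells were ranked by the ranking genes of cluster 1 (left) or cluster 7 (right), which the titles call leading genes. On the left Wnt10a is higher in the top-ranked cells of both libraries, and on the right Wnt6 is higher in the total library, from which the genes were chosen, and its intervals overlap in the sorted library.

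In the luminal classes Wnt5b was present in all 4 large LP clusters, from 122 CPM (96.7 to 152) in cluster 12, led by the milk protein gene Csn2, to 223 CPM (169 to 289) in cluster 16, led by Txnip and Ehf. Wnt7b differed more, from 6.10 CPM (1.66 to 15.6) in cluster 12 to 39.1 CPM (18.7 to 71.9) in cluster 16. Among the 7 clusters mostly of ML cells Wnt5a ranged from 50.8 CPM (35.9 to 69.7) in cluster 8, led by Sftpd, to 162 CPM (127 to 204) in cluster 15, led by Tmem86a and Tph1. Wnt7b was highest in cluster 14, led by Fxyd2 and Arg1, at 81.3 CPM (55.6 to 115).

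Of the 72 Wnt5b counts in cells that met the ML rule, 66 were in the 147 of them that fell in cluster 11. In this cluster 89.1% of cells met the ML rule, but its leading genes included Csf3 and Ehf, which also led LP clusters, and Csn3, a progenitor gene, stood at 3087 CPM beside Prlr at 1229 CPM, so it is given by its number and not as a type. This cluster of 165 cells had 71 counts of Wnt5b, or 83.0 CPM (64.9 to 105), and 66 counts of Wnt5a, or 77.2 CPM (59.7 to 98.2). Cluster 9, led by Aoc1 and Ido1, had no Wnt5b count in 175 cells, and cluster 2 had 1 count in 278 cells. Of the 7 clusters, cluster 11 was the one with both ligands above 50 CPM. Its median cell held 5266 counts, more than the 3403 of all ML cells, and the part of droplets with 2 cells was not tested.

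Over the 17 large clusters, the genes most like each member in log2(CPM + 10) were taken from 7285 genes as a description, since clusters share 1 library and depth. They were Ctr9 (Pearson r = 0.950) and Slc7a2 (0.944) for Wnt5a, Rora (0.963) and Lurap1l (0.951) for Wnt5b, Atp6v1h (0.916) and Spint1 (0.905) for Wnt7b, Krt23 (0.984) and Spon2 (0.974) for Wnt6, and Gm21149 (0.983) and Tenm2 (0.977) for Wnt10a. Sfrp1 was closest to the oxytocin receptor gene Oxtr (0.962) and to App (0.961), and Lgr6 to Col9a3 (0.966) and Nrtn (0.962). Lrp6 had no close match, with Ubn2 (0.724) and Tigd2 (0.720) as its nearest. Wnt11 and Lgr4 had under 100 counts and were left out.

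The 10 genes were set beside 78 other genes of the pathway, of which 15 had no count in the 3 classes and 43 had 20 or more. Of these 43, 19 were 2-fold or more above the next class in basal cells (13.6% of all genes), 1 in LP cells (4.47%) and 6 in ML cells (8.73%), and 17 were not past 2-fold. Of 2 other ligands with 20 or more counts Wnt4, a ligand made under progesterone, was past 2-fold and highest in ML cells like Wnt5a, at 31.9 CPM (26.7 to 37.9) against 7.56 CPM in basal and 5.56 CPM in LP cells. Both export genes, which all Wnt ligands need, were under 2-fold.

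Among 9 counted receptors, 5 were past 2-fold in basal cells (Fzd1, Fzd3, Fzd7, Ryk and Ptk7) and 3 in ML cells (Fzd4, Fzd6 and Fzd10). Over all genes the shares past 2-fold were 13.6% in basal cells and 8.73% in ML cells. Fzd7, a Frizzled receptor, was at 50.1 CPM (42.1 to 59.1) in basal cells and 1.85 CPM (0.505 to 4.74) in LP cells, a ratio of 27.0 (10.3 to 101), which is the same side as Wnt6 and Wnt10a. Fzd10 was counted mainly in ML cells, at 6.53 CPM (4.31 to 9.51) against 1.44 CPM (0.393 to 3.69) in basal cells. Lrp5, the other co-receptor, had a ratio of ML over basal of 1.15 (0.846 to 1.57), an interval that included 1 as for Lrp6.

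In the R-spondin group Lgr5, a stem cell marker of the gut and a relative of Lgr4 and Lgr6, was at 23.1 CPM (17.8 to 29.4) in basal cells and 1.39 CPM (0.287 to 4.06) in LP cells, a ratio of 16.6 (5.43 to 82.5). Lgr5 thus lacked the LP level that Lgr6 had. The ligand of this group with a class of its own was Rspo1, at 16.7 CPM (11.7 to 23.1) in LP cells and 2.42 CPM (1.16 to 4.45) in ML cells, a ratio of 6.89 (3.35 to 15.6). Znrf3, which removes Frizzled receptors, was past 2-fold in basal cells on 23 counts.

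Antagonists other than Sfrp1 lay mostly on the basal side, with 4 of 6 past 2-fold there (13.6% of all genes). Of the other counted antagonists 1 was past 2-fold in ML cells (8.73%) and 1 was not past it. Wif1, which binds Wnt proteins, was at 655 CPM (625 to 686) in basal cells and 6.02 CPM (3.21 to 10.3) in LP cells, a ratio of 109 (63.5 to 205). Sostdc1 had a ratio of 49.96 (19.3 to 185) over LP cells and Dkk3 of 26.6 (15.5 to 49.3) over ML cells, and Kremen1 was also past 2-fold. Sfrp4 was counted in 9 ML cells and stood at 6.53 CPM in that class and at 206 CPM (142 to 290) in the cells that met no rule, and 12 ML cells held 3 or more collagen counts. Whether these were the same ML cells was not tested.

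Of 10 listed targets and feedback genes, 5 had 20 or more counts. Past 2-fold were 4 of these 5, all in basal cells (13.6% of all genes). Nkd1 and Nkd2, inhibitors that the pathway itself induces, had ratios of 129 (35.4 to 1070) and 45.1 (7.78 to 1812) over LP cells, and Myc and the stem cell marker Procr were the others. Axin2, the most used target gene, had only 10 counts in the 3 classes. Among 15 counted transducers, 10 were not past 2-fold. Dvl2, Gsk3a, Tcf7 and Tcf7l1 were past it in basal cells (13.6% of all genes) and Bcl9 in ML cells (8.73%).

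**Figure D4:**
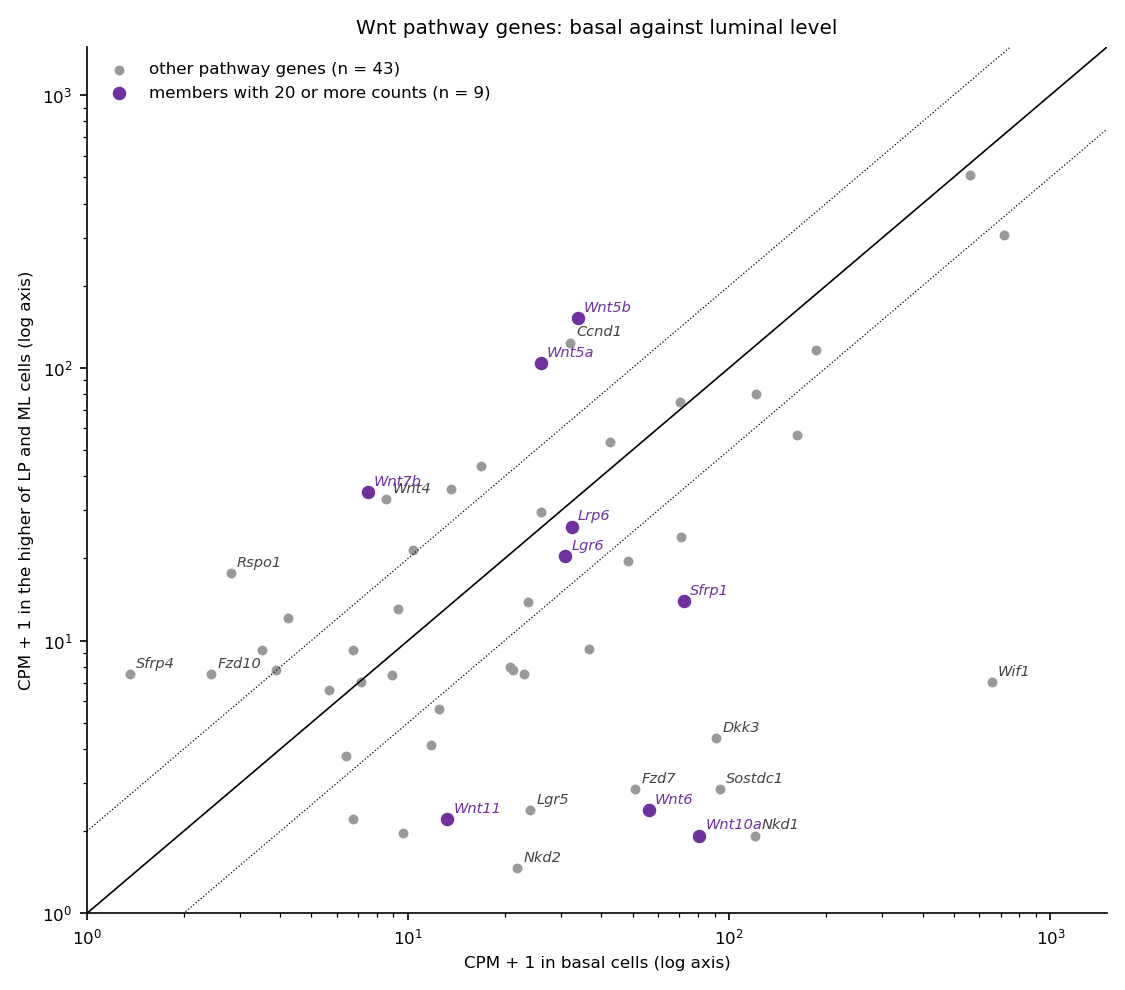
Each point is a pathway gene with 20 or more counts, placed by its CPM + 1 in basal cells and by the higher of its CPM + 1 in LP and ML cells, both on log axes, with the line of equal level (solid) and of 2-fold difference (dotted). Wnt6, Wnt10a and Wnt11 lie with Wif1, Nkd1, Sostdc1 and Fzd7 far below the lines, Wnt5a, Wnt5b and Wnt7b lie above them with Wnt4 and Rspo1, and Lrp6 and Lgr6 lie near the middle.

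The basal level of each gene was then compared with the sorted basal library. The libraries differed in sort, capture and depth at once, and these cannot be told apart. In the sorted library 1758 of 4771 cells (36.8%) met the basal rule that defined basal cells of the total library, at a median of 487 counts per cell. All 10 genes were higher in the sorted library, as were 64% of 10187 genes with 20 or more counts, and the median ratio over 10177 genes was 1.37.

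Past 2-fold were 4 of the 10, and 28.9% of all genes were as much higher, while 0 of 10 and 15.8% of all genes were as much lower. The largest ratio was that of Lgr4, from 4.68 to 18.5 CPM, 3.95-fold (2.10 to 7.96), and 96.4% of genes had a lower ratio. Wnt5b stood at 32.8 and 80.0 CPM in basal cells and in the sorted library (2.44-fold, 1.89 to 3.16), Lgr6 at 29.9 and 71.9 CPM (2.41-fold, 1.84 to 3.16) and Sfrp1 at 71.3 and 170 CPM (2.38-fold, 2.003 to 2.83). These ratios exceeded that of 80.4% to 81.5% of genes. With cells thinned to 300 counts Wnt5b and Sfrp1 fell under 2-fold, both at 1.93, while Lgr4 was at 3.86 and Lgr6 at 3.57, and Wnt7b (5.04) and Wnt11 (2.24) were past it. The summed level of 8 LP markers was 3118 CPM in the sorted library and 2662 CPM in basal cells. Most of it was Trf, at 2980 and 2254 CPM. Csn3 and Cd14 went the other way, at 62.3 and 250 CPM and at 39.0 and 117 CPM. The summed level of 7 fibroblast markers was 728 CPM in the sorted library and 412 CPM in basal cells. Without cells of 3 or more collagen counts the ratio of Sfrp1 was 2.10, and the part of the LP markers in the ratio of Wnt5b was not tested.

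The ligands found mainly in basal cells were under 2-fold with all sorted cells kept. Wnt6 had a ratio of 1.203 (0.96 to 1.51), Wnt11 of 1.57 (0.994 to 2.52) and Wnt10a of 1.51 (1.27 to 1.81), but Wnt11 was at 2.24 with cells thinned to 300 counts, and Wnt10a was at 2.02 and Wnt11 at 1.97 when sorted cells had to meet the basal rule. Wnt5a was at 1.34 (0.963 to 1.87), and its ratio was 0.946 with cells thinned to 300 counts. The basal markers did not move together: Acta2 stood at 0.420 times and Myl9 at 0.305 times their level in basal cells of the total library, and Krt5 at 1.47 times. Shares of cells at 300 counts, with 882 of 4771 sorted cells too shallow and left out, were 2.70% against 1.99% for Wnt10a, 3.91% against 2.45% for Sfrp1 and 2.06% against 0.613% for Lgr6, in the sorted library and in basal cells of the total library. Unthinned, the shares were lower in the shallower sorted library, 4.51% against 12.9% for Wnt10a, 5.78% against 11.8% for Sfrp1 and 3.04% against 5.05% for Lgr6.

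**Figure D5:**
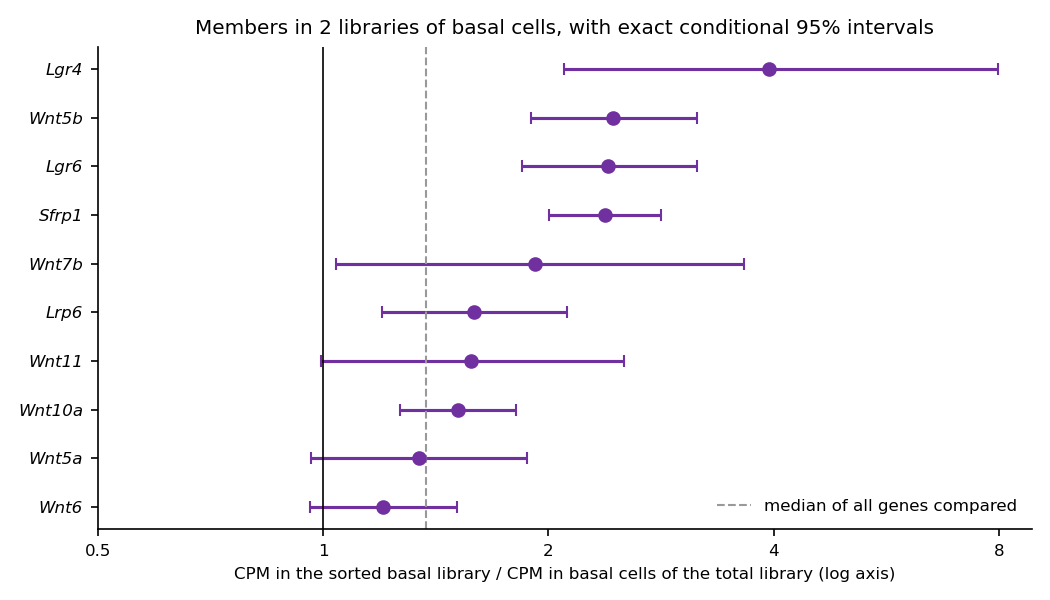
Points show, for each of the 10 genes, the level in the sorted basal library over that in basal cells of the total library on a log axis, with exact conditional 95% intervals, the line of equal level (solid) and the median ratio of all genes compared (dashed, 1.37). Lgr4, Wnt5b, Lgr6 and Sfrp1 lie past 2, with intervals above the dashed line, and Wnt6 and Wnt5a lie close to that line.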

How the data were processed

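Both libraries were deposited as count matrices of genes by cells (unique molecular identifiers), which the authors made with Cell Ranger and the mm10 build, 1.2.1 being the version in the submitters' processing notes; the study's methods name a later version, and the annotation release was not given in the sources used here. The total library held 9227651 counts (median 2425.5 per cell, 802 to 12967) and the sorted basal library 2488704. All barcodes were kept, and their number matched the labels, while the study's text states slightly different numbers of cells for both libraries.

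Counts of each class were summed and divided by the sum of the class (CPM). Intervals were exact Poisson for levels, exact conditional binomial for ratios and Clopper-Pearson for shares, all at 95%. An undetected class was set at 3 counts for a ratio. Basal cells were assigned first, then ML and LP cells. Shares were also given with cells thinned to 800 or 300 counts. No doublet caller was run: 26 cells met the basal and the ML rule and 174 basal cells (13.3%) held 10 or more counts of Krt8, Krt18 and Krt19, and these were left out as an alternative. The libraries shared 28 barcodes. Near the limits, 36 cells held 5 to 9 and 40 cells 10 to 14 basal rule counts. Clusters were made by Leiden (resolution 2, 15 neighbours, 30 components, 2000 variable genes). Python 3.11.15, numpy 2.4.6, scipy 1.17.1, scanpy 1.11.5 and leidenalg 0.10.2 were used. The ratio between 2 classes and its interval were tested on simulated counts, and the placement of genes in a class was not.

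Named genes were the 10 members, genes of the pathway list with 20 or more counts and a 2-fold difference, Lgr5, Axin2, Wnt4, Rspo1, Lrp5 and Procr, and the 2 genes most like each member with 100 or more counts. The basal markers set beside the library comparison, Wif1 and Fzd7 included, and the clusters' leading and ranking genes were chosen after values were seen. Members and lists were chosen with earlier results of these data known. Alternatives are given at the end; those that left out collagen cells, left out shared barcodes or kept sorted cells that met the basal rule were added after seeing the data.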

Additional observations from a re-analysis of the deposited data

How the results depend on the processing

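The log2 ratio of the highest class over the higher of the others was recomputed for each gene under 10 alternatives (9 for Lgr4), 99 values in all, of which 93 moved by less than the counting interval, 5 moved by more and 1 changed sign. The ranges over the alternatives were 4.76 to 5.34 for Wnt6, 6.14 to 7.47 for Wnt10a, 2.60 to 3.49 for Wnt11, 1.82 to 2.38 for Wnt5b, 1.42 to 3.02 for Wnt5a, 0.30 to 0.85 for Wnt7b, 1.51 to 2.77 for Sfrp1, 3.12 to 3.84 for Lgr4 and 0.01 to 0.98 for Lgr6. Thinned to 800 counts, Lrp6 was at -0.11 (basal below LP), Lgr6 at 0.01, and the numbers of genes highest in basal and in LP cells were 4 and 2 in place of 7 and 1, since Wnt11 and Lgr4 then had under 10 counts and Lrp6 was highest in LP cells. Between libraries, 7 genes in place of 4 were past 2-fold when sorted cells had to meet the basal rule, and the cause was not tested. Thinned to 300 counts, the library ratio of Wnt7b was 5.04 in place of 1.92, on few counts. No paired analysis was possible because each group was 1 library and the labels carry no replicate numbers. Depth limited the low genes: 1 count in a class equals 0.242 to 0.463 CPM, and Lgr4 and Wnt11 rested on 14 and 40 counts.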

Other observations

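Wnt genes were also counted in the cells that met no lineage rule and in the smallest clusters. Among the 97 unplaced cells Wnt6 stood at 81.3 CPM (43.3 to 139) and Sfrp1 at 181 CPM (121 to 260), while Wnt10a and Wnt7b had no count. In cluster 21, of 22 cells of which 95.5% were unplaced, led by Fgl2, 13 counts of Wnt6 gave 478 CPM (254 to 817) with no count of Wnt10a. Sfrp1 stood at 772 CPM (478 to 1180) there. The neighbouring genes Wnt6 and Wnt10a, both near 0 in luminal cells, thus parted in these cells, on few counts. In cluster 18, of 26 cells, led by Pi16 and Clec3b and with Col3a1 at 7966 CPM, Sfrp1 stood at 349 CPM (226 to 516).

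A pair of clusters of 23 cells each was too small for the comparisons above. They held ligands that were highest in other classes, in cells that met the basal rule, which was applied before the others. Cluster 19 had 11 counts of Wnt5b (105 CPM, 52.5 to 188) beside 6 of Wnt6, and cluster 20 had 9 counts of Wnt5a (87.3 CPM, 39.9 to 166) beside 1 of Wnt6. Their luminal genes were high too: cluster 19 had Csn3 at 4136 CPM, Elf5 at 353 CPM and Krt18 at 8187 CPM, and cluster 20 had Prlr at 1096 CPM and Krt18 at 10841 CPM. The median cell held 4492 and 4252 counts, against 1838.5 in all basal cells, and the part of droplets with 2 cells was not tested.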
